A study of Mus musculus with 6 samples.

Results

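Synaptic scaffold, adhesion and spine actin genes were followed as a group of 36 genes chosen by symbol, of which 35 were measured among the 22527 gene symbols on the array. Shank2, which encodes a platform protein of the postsynaptic density, was not analysed here. The 35 genes were read by 98 probe sets, a probe set being a group of short probes designed for the same transcript or group of transcripts. Of the genes, 12 had 1 probe set and 23 had several, up to 8 for Kalrn. The main value of a gene is the group mean log2 signal of its brightest probe set, that with the highest mean over the 3 groups.

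The samples were 6 cerebral cortex RNA samples of male mice, 2 in each of 3 groups, each read on an Affymetrix mouse expression array that covers the whole genome. The labels give an age of 16 weeks, and the study's methods name that age before they describe acclimatization, administration and testing, so the mice were older when sampled if it is the age at the start. SAMR1 + Water was the strain that resists senescence, taken here as the control for normal ageing, and SAMP8 + Water was the senescence-accelerated strain. Both received water by mouth in the same volume as the extract. SAMP8 + STEE was the same senescence-accelerated strain given sugarcane top ethanolic extract (STEE) by mouth at 20 mg/kg for 30 days and through 8 further days of behavioral testing. All groups were housed individually, underwent the behavioral tests and, by the study's methods, drank the thymidine analog BrdU during treatment, so these are shared by controls and treated mice. SAMP8 and SAMR1 are separate inbred lines, so a difference between them need not belong to ageing.

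The deposited tables give each group as 1 averaged value with no value per array. No standard deviation, standard error or test can therefore be attached to any difference here, and "higher" and "lower" describe the averaged values only. A difference was counted when it was at least 0.25 on the log2 scale, which is 1.19-fold. Each group mean was rounded to 2 decimals, so rounding alone can move a difference by up to 0.01. Over all 45077 probe sets the median signal came to 4.16 for SAMR1 + Water and 4.15 in both SAMP8 groups. Of the 35 genes, 33 lay above this median of 4.15, and Shank1 and Homer3 did not. The 7 markers of cortical excitatory neurons were above it in every group, with group means from 5.93 to 8.57. The 7 striatum markers were too, from 6.21 to 9.72, so this cannot check the tissue label.

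The postsynaptic density is the protein mesh under the membrane of an excitatory synapse. MAGUK scaffolds hold glutamate receptors there, GKAP/SAPAP proteins join the MAGUKs to Shank, and Homer joins Shank to metabotropic receptors. Adhesion proteins bind partners across the cleft, and actin regulators shape the cytoskeleton of the dendritic spine, the small protrusion that carries the synapse.

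Few of the genes differed by 0.25 or more. Between SAMP8 + Water and SAMR1 + Water, 2 of 35 were higher in SAMP8 (5.71%, against 4.25% of all gene symbols and 6.52% of those above the median signal), Lrrtm3 and Slitrk1. Slitrk1 lay on the threshold, at 0.25, so rounding alone could remove it. In the same comparison 1 was lower, Limk1 (2.86%, against 3.85% and 5.48%). These shares lay near the background and are not a result about the group. The median difference was -0.01 over the 35 genes and 0.00 over all gene symbols. By any size, 16 of the 35 were higher in SAMP8 (45.7%), against 47.1% of all gene symbols and 49.6% of the 12991 genes above the median signal.

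Between SAMP8 + STEE and SAMP8 + Water, 1 of 35 was higher by 0.25 or more, Rnd1 (2.86%, against 1.40% of all gene symbols and 1.96% of those above the median signal). No gene was lower by that much, against 1.22% and 1.48%. The study itself named Rnd1 and Limk1 from these arrays, and the genes were chosen with earlier results of these data known. Counts and shares that include Rnd1 or Limk1, in any of the comparisons, are thus not independent of that choice. By any size, 29 of 35 were higher with STEE (82.9%), against 48.4% of all gene symbols and 54.5% of those above the median signal. The other 6 were Dlg3, Homer2, Nrxn3, Lrrtm2, Slitrk1 and Slitrk2, each lower by at most 0.08. The differences behind this count were small, with a median of 0.05 over the 35 genes against 0.00 over all gene symbols. The share of all genes that were higher with STEE varied with signal, from 36.8% for signals of 2 to 3 to 60.6% for signals of 7 to 8. For signals of 7 to 8, 8 of 9 of the synaptic genes were higher. For signals of 6 to 7 it was 3 of 5, where 58.2% of all genes were higher, and for signals of 8 to 9 it was 3 of 5, where 57.0% were. For signals of 9 to 10 it was 6 of 7 (51.1% of all genes), and for 10 to 11 it was 4 of 4 (46.9%).

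Between SAMP8 + STEE and SAMR1 + Water, 5 of 35 were higher by 0.25 or more (14.3%, against 5.35% of all gene symbols and 8.38% of those above the median signal). They were Lrrtm3, Baiap2, Dlg1, Il1rapl1 and Rnd1. Rnd1 lay on the threshold, at 0.25, and Nrgn just below it, at 0.24, so rounding alone could change this count. None was lower by that much, against 3.52% of all gene symbols and 4.93% of those above the median signal. The count of 5 became 4 with the mean of each gene's probe sets, where Dlg1 was at 0.24, against 4.14% of all gene symbols. It became 6 when the group means were centred on their medians, against 5.75%. The median difference was 0.05 over the 35 genes and -0.01 over all gene symbols, and 23 of the 35 were higher by any size (65.7%), against 44.7% of all gene symbols and 52.1% of those above the median signal. Any pair of these comparisons shares a group, so the counts are not independent of each other.

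**Figure D1:**
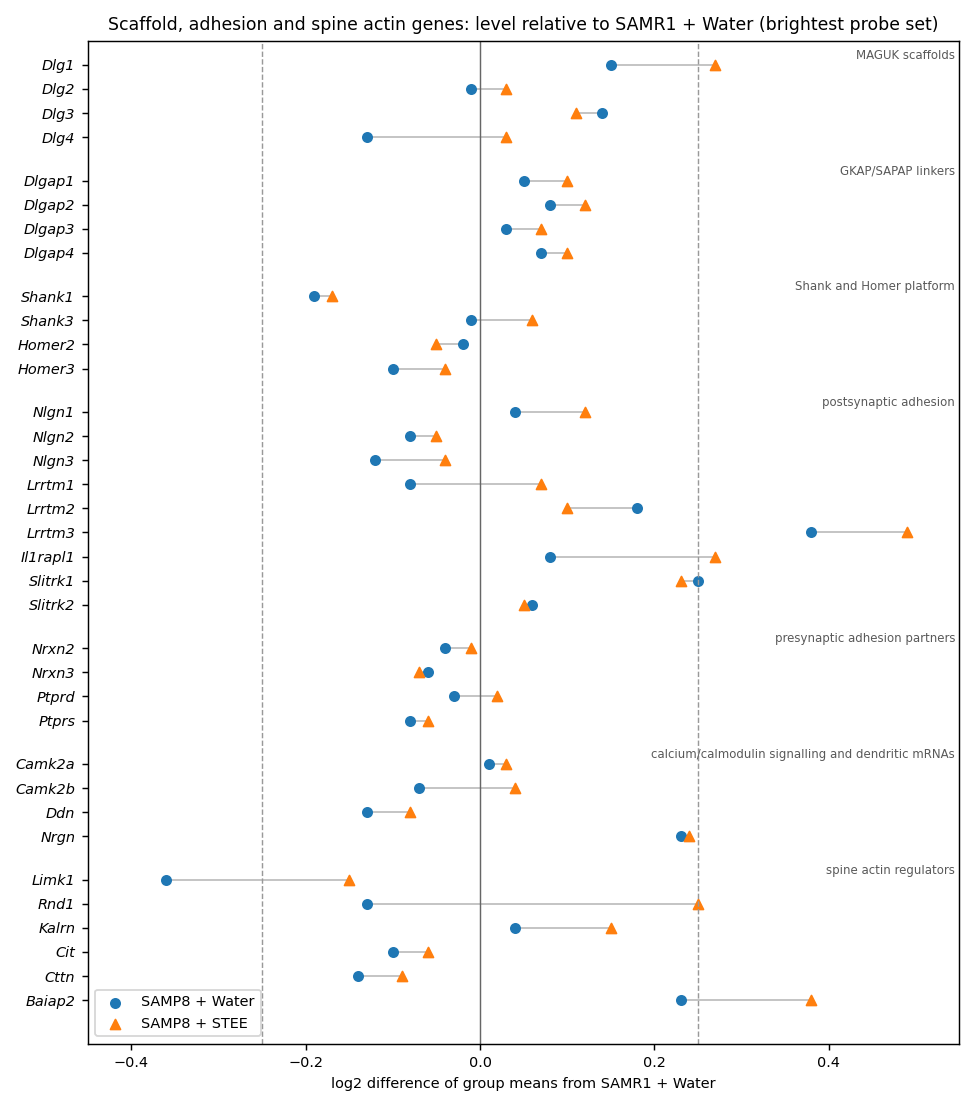
Group mean log2 signal of the brightest probe set of each of the 35 genes, as the log2 difference from SAMR1 + Water (x axis), with SAMP8 + Water as circles, SAMP8 + STEE as triangles and dashed lines at 0.25 either side of 0. Each point is a mean over 2 samples with no error available. Lrrtm3 lay furthest to the right, at 0.38 and 0.49, and Limk1 furthest to the left, at -0.36 in SAMP8 + Water.

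**Figure D2:**
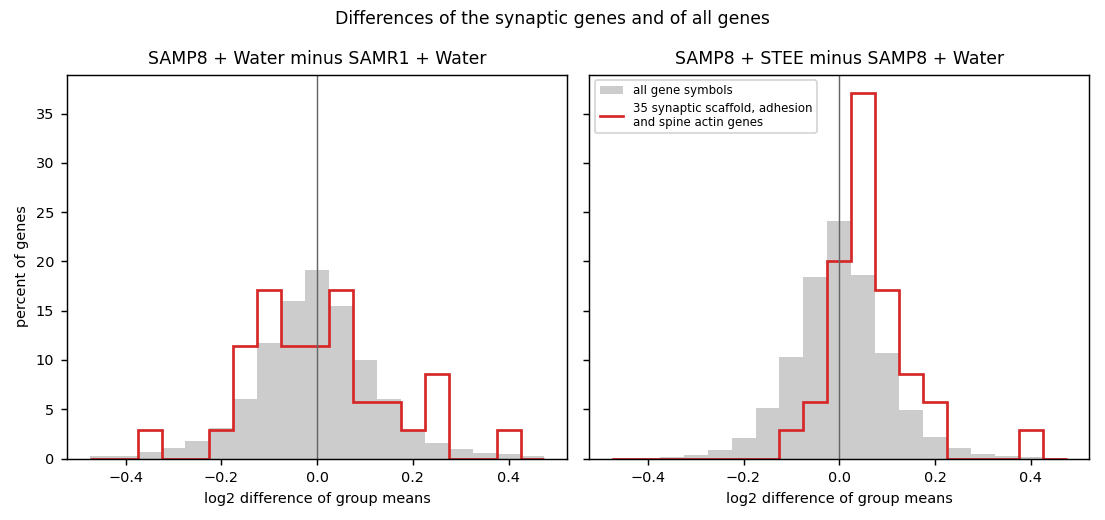
Percent of genes (y axis) in bins of the log2 difference of group means (x axis) for the 35 genes (red line) and for all gene symbols (grey), in both comparisons that involve SAMP8 + Water. The bins cover the centre of the distribution only, and all 35 genes fall inside them. The red line sits to the right of 0 with STEE, with a median of 0.05, and about 0 between the strains, with a median of -0.01.

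Promoter sequences are shown for the genes that differed by 0.25 or more between the strains and for Baiap2. Each covers 250 bases before to 50 after an annotated start in RefSeq GRCm38.p6. RefSeq promoter entries were found for 25 of the 35 genes, 41 entries in all, and none for Rnd1. Capitals mark matches to 3 motifs searched on both strands, TGACGTCA (cyclic AMP response element), GCGNGGGCG (EGR site) and TGANTCA (AP-1 site). The motifs were chosen, and Baiap2 was added, after matches in these promoters had been seen.
Lrrtm3, chr10:64090206-64090505, minus strand: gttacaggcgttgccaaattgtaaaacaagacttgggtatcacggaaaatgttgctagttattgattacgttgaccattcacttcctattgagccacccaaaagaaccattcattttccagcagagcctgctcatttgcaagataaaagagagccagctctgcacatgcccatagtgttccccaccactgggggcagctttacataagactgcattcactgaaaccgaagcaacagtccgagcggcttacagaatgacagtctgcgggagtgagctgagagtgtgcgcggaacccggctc
Slitrk1, chr14:108914190-108914489, minus strand: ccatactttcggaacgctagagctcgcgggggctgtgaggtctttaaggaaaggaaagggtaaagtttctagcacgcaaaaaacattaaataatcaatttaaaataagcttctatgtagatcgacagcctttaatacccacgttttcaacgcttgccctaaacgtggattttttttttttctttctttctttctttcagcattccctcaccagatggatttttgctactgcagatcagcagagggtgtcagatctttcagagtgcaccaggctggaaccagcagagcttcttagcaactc
Limk1, chr5:134678199-134678498, minus strand: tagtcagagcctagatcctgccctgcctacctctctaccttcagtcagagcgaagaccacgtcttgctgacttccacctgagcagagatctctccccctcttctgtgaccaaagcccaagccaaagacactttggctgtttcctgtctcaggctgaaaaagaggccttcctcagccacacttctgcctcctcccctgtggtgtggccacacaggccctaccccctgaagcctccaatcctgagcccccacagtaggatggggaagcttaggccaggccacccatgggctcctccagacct
Limk1, upstream start, chr5:134688541-134688840, minus strand: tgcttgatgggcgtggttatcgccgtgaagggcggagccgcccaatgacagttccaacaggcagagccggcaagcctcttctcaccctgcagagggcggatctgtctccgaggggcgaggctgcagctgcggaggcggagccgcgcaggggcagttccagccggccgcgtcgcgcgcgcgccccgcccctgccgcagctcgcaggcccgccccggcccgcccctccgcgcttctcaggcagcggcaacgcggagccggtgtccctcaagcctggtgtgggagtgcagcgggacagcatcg
Baiap2, chr11:119942842-119943141, plus strand: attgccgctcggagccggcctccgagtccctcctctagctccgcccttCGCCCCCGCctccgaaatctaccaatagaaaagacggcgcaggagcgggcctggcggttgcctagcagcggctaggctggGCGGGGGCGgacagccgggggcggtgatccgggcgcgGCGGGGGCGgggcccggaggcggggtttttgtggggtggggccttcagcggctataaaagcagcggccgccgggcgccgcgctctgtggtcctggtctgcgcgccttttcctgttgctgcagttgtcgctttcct

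The Baiap2 window held 3 EGR matches that do not overlap, beginning at bases -202, -122 and -85 from the start. The windows of Lrrtm3, Slitrk1 and Limk1 held no match to any of the 3 motifs. Over the 41 promoter entries of the synaptic genes, 6 held an EGR match, in Baiap2, Camk2b, Dlgap4, Homer2, Homer3 and Shank3, against 5.55% of all 32851 entries. The cyclic AMP response element occurred in 2, Ptprs and Slitrk2, against 1.79% of all entries. The AP-1 site occurred in 1, Nrxn3, against 7.81% of all entries. A match is a run of letters and not a measured binding site. Because the motifs were chosen after matches had been seen, these counts are not a result about the genes. The entries compared were not matched for base content.

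Among the MAGUK scaffolds, Dlg4, the main scaffold of the mature postsynaptic density, had means of 9.06 in SAMR1 + Water, 8.93 in SAMP8 + Water and 9.09 in SAMP8 + STEE. SAMP8 + Water was lowest by 0.13 against SAMR1 and by 0.16 against STEE. All 3 Dlg4 probe sets were lower in SAMP8 + Water than in SAMR1, by 0.02 to 0.21, and all 3 were higher with STEE, by 0.06 to 0.16. Of all gene symbols, 11.0% differed by at least as much as Dlg4 between STEE and SAMP8 + Water, and 4.63% of those with a signal within 0.5 of it. Dlg1, a MAGUK that also acts in trafficking of receptors, had means of 9.26, 9.41 and 9.53, so both SAMP8 groups were above SAMR1. Its second probe set differed in the same order, at 7.08, 7.40 and 7.57, and its dimmest lay between 3.17 and 3.21. Dlg3 had means of 7.95, 8.09 and 8.06, again lowest in SAMR1, and the brightest probe set of Dlg2, another MAGUK, stayed between 9.06 and 9.10. The dimmest of its 3 probe sets was lowest in SAMR1, at 4.98, 5.41 and 5.61, while the second lay between 5.99 and 6.06.

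The GKAP/SAPAP linkers were close to level across the groups. The 4 genes Dlgap1 to Dlgap4 were each higher in SAMP8 + Water than in SAMR1, by 0.03 to 0.08, and each higher again with STEE, by 0.03 to 0.05. Dlgap1 had means of 9.80, 9.85 and 9.90. In the Shank and Homer platform, the 4 measured genes were lower in SAMP8 + Water than in SAMR1, by 0.01 to 0.19. Shank1, a Shank of the postsynaptic density, had the largest of these differences with means of 3.69, 3.50 and 3.52, but its signal lay below the array median. Shank3, a Shank linked to autism, had means of 7.89, 7.88 and 7.95 and did not differ by more than 0.07 in any comparison. Homer2 lay between 7.10 and 7.15, and Homer3, also below the array median, between 3.50 and 3.60.

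Among the postsynaptic adhesion genes, Lrrtm3, a leucine-rich repeat protein that organises excitatory synapses, had the largest difference of the 35 between the strains. Its means were 7.21 in SAMR1 + Water, 7.59 in SAMP8 + Water and 7.70 in SAMP8 + STEE, so SAMR1 was lowest by 0.38 (1.30-fold). Of all gene symbols 2.96% differed by as much between the strains, and 4.29% of those of like signal. All 4 Lrrtm3 probe sets were higher in SAMP8 + Water, by 0.02 to 0.38, and 3 of them were higher again with STEE. Against SAMR1, SAMP8 + STEE was higher by 0.49 (1.40-fold), a size reached by 1.74% of all gene symbols. Its paralog Lrrtm2 had means of 6.72, 6.90 and 6.82, also lowest in SAMR1. Lrrtm1, another paralog, was lowest in SAMP8 + Water at 7.53, 7.45 and 7.60. Its second probe set was instead lowest in SAMR1, at 5.95, 6.04 and 6.02.

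Slitrk1, which binds presynaptic receptor phosphatases, had means of 8.80, 9.05 and 9.03, so both SAMP8 groups were above SAMR1 by 0.25 and 0.23. It has a single probe set, and 8.10% of all gene symbols differed by as much between the strains. Slitrk2 lay between 6.31 and 6.37. Il1rapl1, which pairs with the phosphatase Ptprd, had means of 5.66, 5.74 and 5.93, highest in SAMP8 + STEE by 0.27 over SAMR1. The neuroligins, which bind neurexins, differed less. Nlgn1 had means of 7.61, 7.65 and 7.73, Nlgn2 8.28, 8.20 and 8.23, and Nlgn3 6.65, 6.53 and 6.61.

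The presynaptic partners of these proteins were nearly level. At their brightest probe sets, Nrxn2, Nrxn3, Ptprd and Ptprs were each lower in SAMP8 + Water than in SAMR1, by 0.03 to 0.08. With STEE they lay within 0.05 of SAMP8 + Water. With the mean of each gene's probe sets, Nrxn2, Nrxn3 and Ptprs were at 0.02, 0.03 and 0.10 between the strains, and Ptprd at -0.08. The second Nrxn2 probe set was higher with STEE by 0.21. Nrxn3 had means of 9.42, 9.36 and 9.35, and Ptprd 9.65, 9.62 and 9.67.

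Of the 4 calcium and calmodulin genes and dendritic mRNAs, none differed by 0.25 or more, and Nrgn came closest. Camk2a, the alpha subunit of the kinase of synaptic plasticity, had means of 10.97, 10.98 and 11.00. Camk2b, the beta subunit, had means of 8.82, 8.75 and 8.86, lowest in SAMP8 + Water. Nrgn, which encodes the calmodulin-binding protein neurogranin, had means of 10.57, 10.80 and 10.81, so both SAMP8 groups were above SAMR1, by 0.23 and 0.24. Ddn, which encodes dendrin, had means of 10.39, 10.26 and 10.31, the opposite order for the strains.

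At the brightest probe sets, the spine actin genes held the 2 largest differences with STEE, those of Rnd1 and Limk1. All 6 were higher with it, by 0.04 to 0.38, against 48.4% of all gene symbols and 54.5% of those above the median signal. With the mean of each gene's probe sets, Limk1 was higher by 0.04 and Il1rapl1 by 0.19. Of the 29 measured other spine actin genes, 17 were higher with STEE by any size, with a median of 0.01. Rnd1, an atypical small GTPase, had means of 4.70 in SAMR1 + Water, 4.57 in SAMP8 + Water and 4.95 in SAMP8 + STEE. SAMP8 + STEE was higher than SAMP8 + Water by 0.38 (1.30-fold), a size reached by 0.573% of all gene symbols and by 1.22% of those of like signal. Rnd1 has a single probe set, so no second probe set on the array bears on it. Limk1, the kinase that phosphorylates cofilin and so slows actin disassembly, had means of 6.51, 6.15 and 6.36. SAMP8 + Water was lower than SAMR1 by 0.36 (1.28-fold), and STEE was above SAMP8 + Water by 0.21. Its other probe sets had means of 4.88, 4.84 and 4.95, and of 3.78, 3.68 and 3.48. All 3 were thus lower in SAMP8 + Water than in SAMR1, by 0.04 to 0.36, while with STEE the dimmest, below the array median, was lower by 0.20. Limk1 and Rnd1 were among the genes that the study itself named from these arrays, so neither is independent of that choice.

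Baiap2, which links Rac to actin assembly, has 4 probe sets, and the brightest had means of 7.19, 7.42 and 7.57. The other 3 had means of 6.97, 7.23 and 7.00, of 6.74, 7.09 and 7.23, and of 5.45, 5.76 and 5.96. All 4 were higher in SAMP8 + Water than in SAMR1, by 0.23 to 0.35, and with STEE 3 of 4 were higher and the second was lower by 0.23. Kalrn, a guanine nucleotide exchange factor of dendritic spines, had means of 10.34, 10.38 and 10.49. Cit, which encodes citron kinase, had means of 7.79, 7.69 and 7.73. Cttn, which encodes the branched actin binding protein cortactin, had means of 8.32, 8.18 and 8.23. At these brightest probe sets Cit and Cttn were highest in SAMR1. The second Cttn probe set was lowest there, at 7.96, 8.01 and 8.01. The third of Cit was highest with STEE, at 6.94, 6.85 and 6.97.

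Probe sets of the same gene often disagreed. They share the arrays and are not replicates, and which transcript form each reads was not analysed here. Camk2a had 5 probe sets, of which the second brightest had means of 9.99, 9.42 and 9.54, lower in SAMP8 + Water by 0.57, while the other 4 differed by at most 0.01 between the strains. The fifth-brightest probe set of Dlgap1 was also lower by 0.57, at 5.96, 5.39 and 5.32. Ptprs had 1 probe set higher by 0.57, at 4.60, 5.17 and 5.16, against its brightest at 9.07, 8.99 and 9.01. In Kalrn, the fourth probe set was lowest in SAMP8 + Water, at 6.92, 6.53 and 6.91, while the sixth was lowest in SAMR1, at 5.43, 5.79 and 5.81. The dimmest probe set of Lrrtm1 had means of 5.40, 5.09 and 5.35.

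Over the 23 genes with several probe sets, the median range between a gene's probe sets was 0.19 between the strains and 0.14 with STEE, against 0.14 and 0.11 over all genes with several. All probe sets lay on the same side of 0 in 8 of 23 between the strains (34.8%), against 41.8% of all such genes. Neither the ranges nor these shares were matched for the number of probe sets per gene, on which both depend. Over the 98 probe sets, 66 were higher (67.3%) and 27 lower (27.6%) with STEE, against 47.3% and 48.1% of all probe sets. In SAMP8 + Water against SAMR1, 45 were higher (45.9%) and 50 lower (51.0%), against 46.5% and 49.6% of all probe sets.

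**Figure D3:**
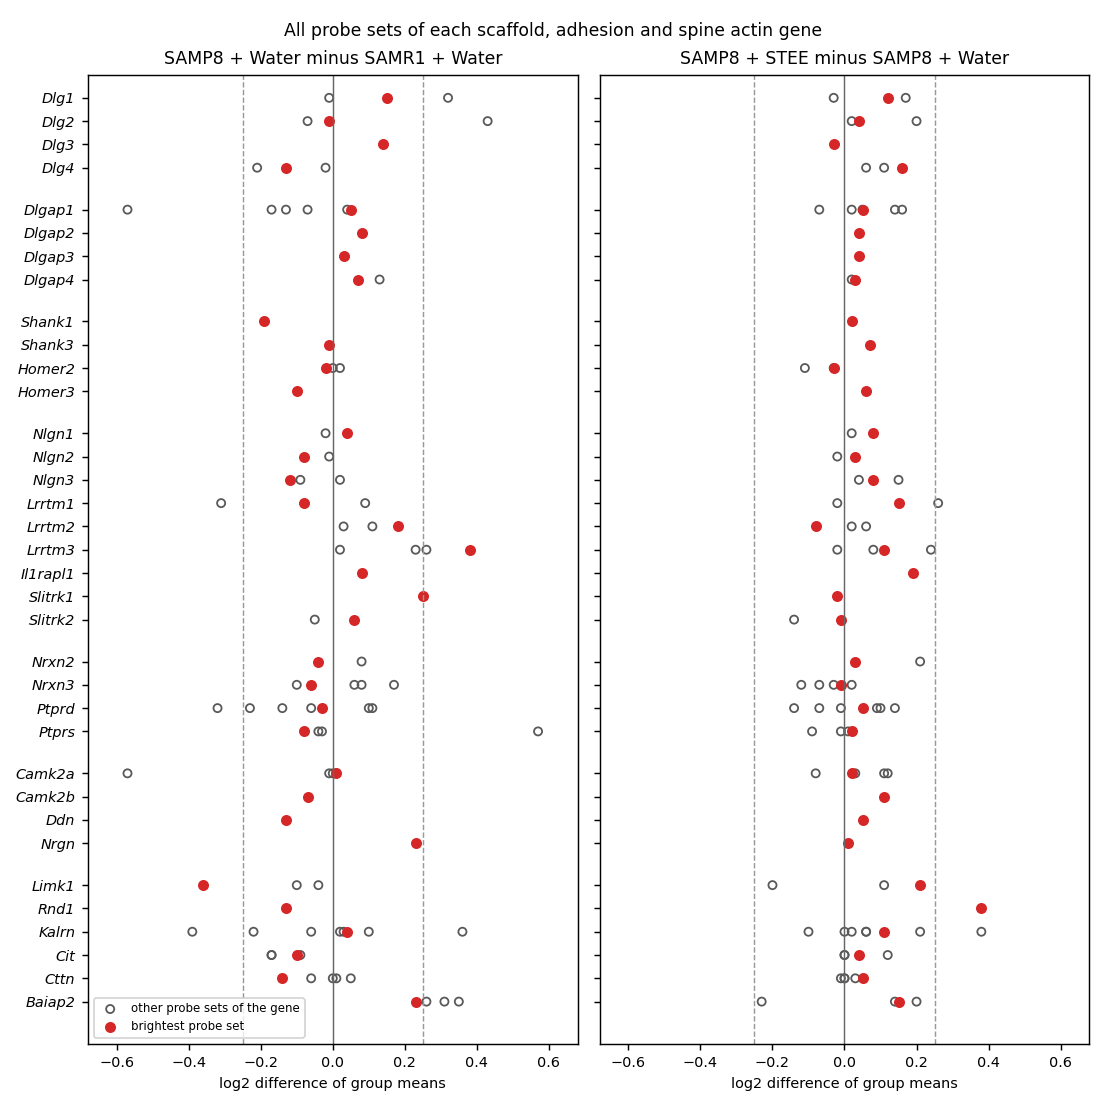
Log2 difference of group means (x axis) for every probe set of each gene, with the brightest filled in red and the others open, and dashed lines at 0.25 either side of 0. Single probe sets of Camk2a and Dlgap1 lay at -0.57 and one of Ptprs at 0.57 between the strains while the brightest of each lay near 0. With STEE the 4 probe sets of Baiap2 lay between -0.23 and 0.20.

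Other genes of the same pathways were read from 3 lists, chosen with earlier results of these data known. Among all gene symbols, 4.25% were higher and 3.85% lower in SAMP8 + Water than in SAMR1 by 0.25 or more. With STEE 1.40% were higher and 1.22% lower by that much. Of 14 measured other postsynaptic density genes, 2 were higher in SAMP8 + Water than in SAMR1 by 0.25 or more and 1 was lower. Homer1, which encodes a Homer scaffold, had means of 8.94, 9.24 and 9.34, and Cnksr2, a scaffold of Ras signalling, 7.64, 7.95 and 7.97. Dlg5, a MAGUK family member, had means of 5.83, 5.50 and 5.75, and was the only one of the 14 to be higher with STEE by 0.25.

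Of the 28 other synaptic adhesion genes, 6 were higher with STEE by 0.25 or more and 0 were lower, against 1.40% and 1.22% of all gene symbols. By any size 23 were higher, against 48.4% of all gene symbols, with a median of 0.08 over the 28. The 4 with the largest differences were Il1rap, a partner of the same phosphatases as Il1rapl1, at 5.95, 5.56 and 5.98, Lrfn2 at 3.52, 3.38 and 3.79, Flrt3 at 6.80, 6.66 and 7.04, and Cbln4 at 6.10, 6.51 and 6.80. Lrfn2 lay below the array median in every group. Lrrtm4, the remaining Lrrtm gene, had means of 5.03, 5.48 and 5.61 and was, like Lrrtm3 and Lrrtm2, lowest in SAMR1. Of 29 measured other spine actin genes, 4 were higher in SAMP8 + Water than in SAMR1 by 0.25 or more, Rnd3, Actn2, Synpo and Arhgef7. With STEE, 0 were higher and 1 was lower, with a median of 0.01. That was Rnd3, a paralog of Rnd1, at 5.94, 6.55 and 6.13, lower with STEE by 0.42 where Rnd1 was higher by 0.38. Limk2, the paralog of Limk1, lay between 6.30 and 6.31.

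Markers of other cells and regions also differed between these groups, and fewer cells of a type cannot be told apart from less RNA per cell in tissue samples. Among all gene symbols, 4.25% were higher and 3.85% lower in SAMP8 + Water than in SAMR1 by 0.25 or more. All 7 striatum markers were higher in SAMP8 + Water than in SAMR1 by 0.25 or more, by 0.32 to 0.89, with list means of 7.41 in SAMR1 + Water, 8.04 in SAMP8 + Water and 8.08 in SAMP8 + STEE. Of 6 oligodendrocyte markers, 4 were lower by 0.25 or more, with list means of 9.79, 9.47 and 9.47. Of 5 hippocampus markers, 3 were lower by that much, and their list means of 3.81, 3.51 and 3.45 lay below the array median. Of 8 immediate-early genes, which respond to neuronal activity within minutes, 4 were higher by 0.25 or more, with a median of 0.25 and Arc furthest at 0.72. Of 7 cortical excitatory neuron markers 1 was higher and 2 were lower by 0.25 or more. Of 5 choroid plexus markers 2 were lower by that much, Ttr and Kcne2. Of 6 interneuron markers 1 was higher by 0.25 or more, and of 5 endothelium markers 1 was higher and 1 lower. The lowest group mean of any marker was 2.57, for Kcne2 in SAMP8 + STEE. Kcne2 had means of 2.92, 2.62 and 2.57, all below the array median of 4.15, so its difference was read at low signal. The part of all these markers in the strain differences of Lrrtm3, Slitrk1, Baiap2 and Limk1 was not tested.

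With STEE, 6 of 7 cortical excitatory neuron markers were higher than in SAMP8 + Water, 3 of them by 0.25 or more, with list means of 7.35, 7.34 and 7.51. They were Cux2, at 8.00, 7.73 and 8.03, Tbr1, at 8.12, 8.28 and 8.57, and Fezf2, at 5.93, 5.99 and 6.26. Their median difference with STEE was 0.18, larger than the 0.05 of the 35 synaptic genes. All 8 immediate-early genes were lower with STEE, 7 of them by 0.25 or more, with list means of 7.14, 7.39 and 6.68. Among all gene symbols, 48.4% were higher with STEE by any size. By 0.25 or more, 1.40% of all gene symbols were higher and 1.22% lower. Arc had means of 7.64, 8.36 and 7.23. Of 5 choroid plexus markers, Ttr was higher with STEE by 1.09, at 10.20, 8.24 and 9.33, while the other 4 lay between -0.09 and 0.01 and the list median was 0.00. Astrocyte and microglia markers had no gene at 0.25 or more either way in both comparisons that involve SAMP8 + Water. The part of these markers in the differences of Rnd1, Limk1 and the other synaptic genes with STEE was not tested.

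**Figure D4:**
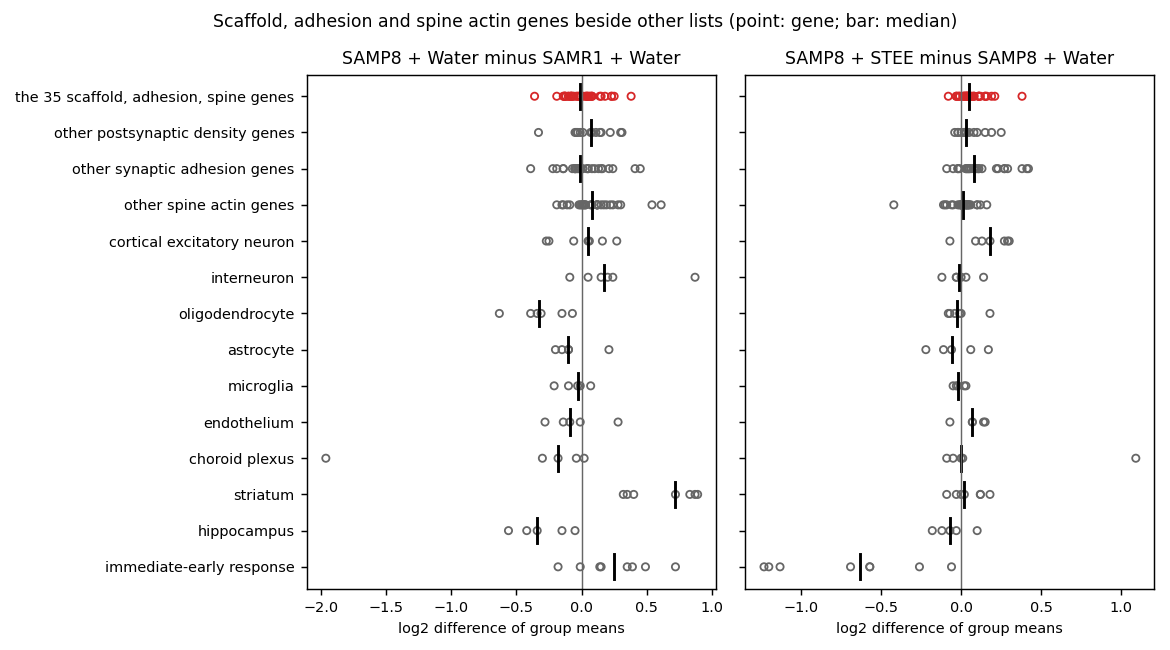
Log2 difference of group means (x axis) for each gene, as open circles with the median as a bar, for the 35 genes (red), 3 lists of other genes of their pathways and 10 lists of marker genes (grey). Between the strains the striatum list had a median of 0.72 where the 35 genes had -0.01, and with STEE the immediate-early list had a median of -0.63 and the excitatory neuron list 0.18 where the 35 genes had 0.05.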

How the data were processed

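Cerebral cortex RNA of 6 samples, 2 per group, was amplified, biotinylated and hybridised by the authors, 1 array per sample. RMA in Expression Console gave the authors' signals, which went on to Transcriptome Analysis Console. The genome build and annotation of the tables are not given in the sources used here. The deposited log2 values are the authors' averages per group, called bi-weight averages, with 2 decimals. Signed linear fold changes, ANOVA p-values and FDR p-values of the authors' own comparisons were not used. The SAMP8 + Water averages were the same in both tables for all 45077 probe sets (0 differed), so SAMP8 + STEE was also set against SAMR1 + Water.

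Groups came from the sample titles. Differences of group means were taken in Python 3.11.15 with numpy 2.4.6 and pandas 2.3.3, and figures were drawn with matplotlib 3.10.9. A probe set counts for each symbol in its entry, and 5694 probe sets had none. Like signal means within 0.5 on the log2 scale. The counting was tested on simulated data. With no value per array there was no test, and the small number of arrays limits precision. The genes named are the listed genes by role and, from the other lists, at most 4 per list and comparison that differed by 0.25 or more, with defining markers beside a result. The genes and lists were chosen with earlier results of these data known. Drd1 was read under its older symbol, and the motifs, promoters and counts of any size were chosen after values were seen. Alternatives were other ways to combine probe sets, filters on probe sets, centring and thresholds of 0.15 and 0.5.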

Additional observations from a re-analysis of the deposited data

How the results depend on the processing

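No paired analysis was possible because the deposited columns are group means, and for the same reason no sample could be left out in turn. At a threshold of 0.15 in place of 0.25, SAMP8 + Water was above SAMR1 + Water for 6 genes of the 35 and below it for 2, against 11.0% of all gene symbols either way. At 0.15, 6 were higher with STEE than in SAMP8 + Water and 0 lower, against 6.56% and 6.37%. In SAMP8 + STEE against SAMR1 + Water, 8 were higher and 2 lower, against 12.6% and 11.2%. At 0.5 there were 0 in each of these counts, against 0.0932% to 1.09% of all gene symbols, so these zeros lay near the background. With the mean or the median of a gene's probe sets, or with only probe sets designed for 1 transcript, 0 genes were lower between the strains. The shares of all gene symbols were then 2.67%, 2.64% and 3.70%, and Limk1 differed by -0.17, -0.10 and -0.10. With only probe sets designed for 1 transcript, 1 gene, Limk1, was lower in SAMP8 + STEE than in SAMR1, by 0.30, against 3.47% of all gene symbols. Lrrtm3 was at 0.22 with the mean of its probe sets and Baiap2 at 0.29, between the strains. No difference counted at 0.25 changed sign under these alternatives. Limk1 with STEE, below that threshold at 0.21, was at 0.04 with the mean of its probe sets. With only probe sets designed for 1 transcript it changed sign, to -0.20. Under the other ways to combine or filter probe sets and under centring, 26 to 29 of the 35 genes were higher with STEE by any size. The share of all gene symbols was then 47.8% to 48.4%. With only probe sets above the median signal it was 27 of 33, against 54.5%. The number of arrays, and the absence of any spread between them, limits every value.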
